A study of Mus musculus with 6 samples.

Results

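The vacuolar ATPase (V-ATPase) is the rotary pump that acidifies lysosomes, endosomes, the Golgi and secretory vesicles. Its membrane sector, V0, and the accessory proteins of that sector were followed here through 10 genes: the a subunit isoforms Atp6v0a1, Atp6v0a2, Tcirg1 and Atp6v0a4, the proteolipid Atp6v0b, the d subunit isoforms Atp6v0d1 and Atp6v0d2, the small subunit gene Atp6v0e, and the accessory genes Atp6ap1 and Atp6ap2. A gene was represented by the probe set that named it alone, and by the brightest over all arrays where there were several. All 10 members were measured, each by 1 probe set, among 30063 genes. Each value below is a log2 probe set value, and each difference is Rptor cKO minus wild-type on that scale.

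Total RNA came from epidermal sheets of mouse embryos at stage E18.5, on 3 arrays from Rptor cKO embryos (arrays 1 to 3) and 3 from wild-type littermates (arrays 4 to 6). The sheets had been lifted off the dermis after ammonium thiocyanate treatment. Rptor encodes Raptor, the substrate-binding subunit of the kinase complex mTORC1. The sources used here do not say which promoter drove the recombinase, which exons were removed or when. The design of the series asks about a panel of lysosomal genes in the knockout, and the V-ATPase is a defining component of the lysosome.

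In the pump, the soluble V1 sector hydrolyses ATP and turns a ring of proteolipids in V0, and protons cross the membrane between that ring and the a subunit. The a isoforms send the pump to different places: in mice and humans the a1 isoform is best known from neurons, a2 from the Golgi and early endosomes, a3 (Tcirg1) from osteoclasts and late endosomes and lysosomes, and a4 from the acid-secreting cells of kidney and epididymis. On the lysosome the V-ATPase also binds the Ragulator complex and the Rag GTPases, which bring mTORC1 to the lysosomal surface when amino acids are plentiful.

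Several V0 and accessory genes were lower in Rptor cKO epidermis. Atp6v0e, Atp6v0a4, Atp6v0a1 and Atp6ap1 fell, by 0.47 to 0.95 on the log2 scale, that is 1.38-fold to 1.94-fold. Of 10 members 4 fell and none rose in limma with Benjamini-Hochberg adjustment over all genes at a threshold of 0.05. At an unadjusted p under 0.05, 7 were lower and none higher, where 11.4% of all genes were lower and 11.9% higher. By the adjusted threshold, 9.60% of all genes tested were called, 5.96% as lower and 3.64% as higher. The median difference of the members was -0.58, and that of all genes 0.05. In 7 of 10 members every Rptor cKO array lay below every wild-type array, as it did in 12.5% of all genes; counting both directions, 29.0% of all genes did not overlap. In bulk tissue, fewer cells of a type and less RNA per cell cannot be told apart. With quantile normalization, 51.8% of the called genes of the whole table were lower, against 62.1% with the values as deposited, and 3 members fell.

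The call count of the members varied with the arrays used, and so did that of all genes. For the members it was 1 without Rptor cKO array 2, 2 with wild-type array 6 left out, and between 3 and 5 with any other array left out. Over all genes, 2886 calls became 900 and 2028 in the first 2 of these fits. They became 1854 on omitting Rptor cKO array 1, where 3 members were called, and 2281 to 2444 in the remaining fits. A drop in calls was therefore not particular to the members. Rptor cKO array 2 was the male of its group by Xist and Y-linked genes, its other arrays were female, and all wild-type arrays were male. A fit with embryo sex as an added term and a fit on the male arrays alone therefore gave the same differences. In both, the difference is that of Rptor cKO array 2 alone from the wild-type arrays, so they are not separate checks. With embryo sex as an added term 1 member fell, and on the male arrays alone 2 did. Atp6v0e fell in each of these fits, with adjusted p = 0.0432 without Rptor cKO array 2 and 0.0466 with the sex term.

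**Figure D1:**
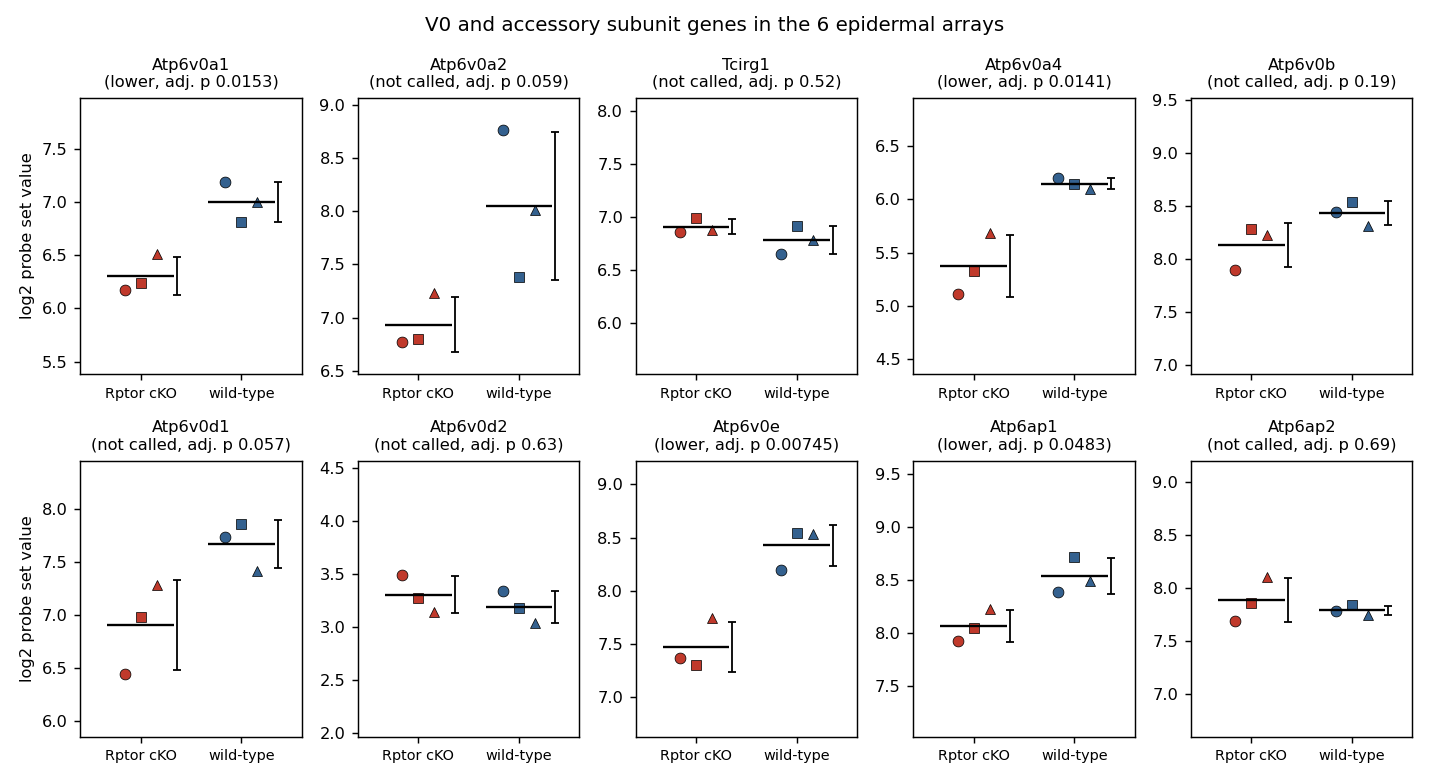
Log2 probe set values of the 10 V0 and accessory genes on each array, with Rptor cKO in red left of wild-type in blue. Circle, square and triangle are arrays 1, 2 and 3 in Rptor cKO and arrays 4, 5 and 6 in wild-type, the bar is the mean and the whisker the SD (n = 3 each), and every panel spans the same height in log2 units. Atp6v0e, Atp6v0a4, Atp6v0a1 and Atp6ap1 are lower on all 3 Rptor cKO arrays, and Tcirg1, Atp6v0d2 and Atp6ap2 overlap.

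Among the a isoforms, Atp6v0a1 and Atp6v0a4 fell, Atp6v0a2 was lower without passing the test, and Tcirg1 did not follow them. Atp6v0a1 (chromosome 11, 101009422 to 101063719, mm10) read 6.17, 6.24 and 6.51 in Rptor cKO arrays 1 to 3, against 7.19, 6.82 and 7.00 in wild-type arrays 4 to 6. The groups did not overlap, and the difference was -0.70 (SE 0.13, limma adjusted p = 0.0153). Atp6v0a4 (chromosome 6, 38048483 to 38124586) read 5.11, 5.32 and 5.69 in Rptor cKO and 6.21, 6.14 and 6.10 in wild-type. Its wild-type arrays lay within an SD of 0.055, its Rptor cKO arrays spread over an SD of 0.29, and the difference was -0.78 (SE 0.14, limma adjusted p = 0.0141). Without Rptor cKO array 2 both calls were lost (adjusted p = 0.0753 for Atp6v0a1 and 0.0692 for Atp6v0a4), and without wild-type array 6 that of Atp6v0a1 (adjusted p = 0.0506).

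Atp6v0a2 (chromosome 5, 124629052 to 124724455), whose human counterpart is mutated in a form of cutis laxa with loose skin, had the lowest difference of the members, -1.12, but also the widest spread. It read 6.77, 6.80 and 7.23 in Rptor cKO, against 8.77, 7.38 and 8.01 in wild-type. The groups did not overlap, but wild-type array 4 stood far above the rest and wild-type array 5 close to the Rptor cKO range. The difference missed the threshold (SE 0.31, limma adjusted p = 0.0594, 95% interval, not adjusted for the number of genes, -1.82 to -0.41). Leaving out wild-type array 5 gave -1.45 (limma adjusted p = 0.0145), and leaving out wild-type array 4 gave -0.76. Tcirg1 (chromosome 19, 3896050 to 3907133) read 6.86, 6.99 and 6.88 in Rptor cKO and 6.65, 6.92 and 6.79 in wild-type. The groups overlapped, and the difference was 0.12 (SE 0.10, limma adjusted p = 0.523, 95% interval -0.11 to 0.35). That interval, not adjusted for the number of genes, includes a small fall and stops short of the differences measured for the other a isoforms.

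Atp6v0b (chromosome 4, 117884330 to 117887333), a proteolipid of the rotating ring, differed by -0.30 (SE 0.12, limma adjusted p = 0.195, 95% interval -0.59 to -0.01). It read 7.89, 8.28 and 8.22 in Rptor cKO, against 8.44, 8.54 and 8.31 in wild-type, so that the groups were separated by a narrow gap. Under quantile normalization the difference was -0.14. The main proteolipid of the ring, Atp6v0c, had no probe set of its own in the annotation used and was not analysed here.

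The d subunit couples the ring to the central stalk of V1. Atp6v0d1 (chromosome 8, 105524461 to 105566064), its broadly expressed isoform, read 6.45, 6.98 and 7.28 in Rptor cKO and 7.73, 7.86 and 7.42 in wild-type. The 3 Rptor cKO arrays again lay below the 3 wild-type arrays, with array 1 lowest. The difference of -0.77 missed the threshold (SE 0.21, limma adjusted p = 0.0570, 95% interval -1.25 to -0.29), and was -0.96 (limma adjusted p = 0.0252) once Rptor cKO array 3 was left out. Atp6v0d2 (chromosome 4, 19876838 to 19922566), the isoform known from osteoclasts and kidney, read 3.49, 3.28 and 3.15 in Rptor cKO and 3.34, 3.18 and 3.04 in wild-type. On all 6 arrays it was dimmer than the median negative control, which ran from 3.81 to 4.11 over 5222 probe sets, so its difference of 0.12 (SE 0.12, limma adjusted p = 0.628) says little about the gene.

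The e subunit is a small hydrophobic protein of V0. Atp6v0e (chromosome 17, 26676396 to 26699647) had the smallest p of the 10 genes. It read 7.37, 7.30 and 7.74 in Rptor cKO, against 8.20, 8.54 and 8.54 in wild-type, and averaged 7.47 ± 0.23 and 8.43 ± 0.20 (SD, n = 3 each; limma adjusted p = 0.00745). This was a 1.94-fold fall (-0.95, SE 0.15, 95% interval -1.29 to -0.62), with a gap between the groups. The related gene Atp6v0e2, no member of the set, differed by -0.05 (SE 0.12, limma adjusted p = 0.869) at a level of 4.24 to 4.67 in the 6 arrays. Atp6ap1l, another gene related to a member, was dimmer than the median negative control on each of the 6 arrays.

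The accessory subunits parted. Atp6ap1 (Ac45, chromosome X, 74297097 to 74304721), a glycoprotein needed to assemble V0, read 7.93, 8.05 and 8.23 in Rptor cKO and 8.39, 8.72 and 8.49 in wild-type. The groups did not overlap and the difference was -0.47, just past the threshold (SE 0.12, limma adjusted p = 0.0483). Atp6ap2 (the prorenin receptor, chromosome X, 12587759 to 12617051), which binds the V-ATPase and also acts in renin and WNT signalling, read 7.69, 7.86 and 8.11 in Rptor cKO and 7.79, 7.84 and 7.75 in wild-type. Its Rptor cKO arrays spanned the whole wild-type range, and the difference was 0.09 (SE 0.12, limma adjusted p = 0.692, 95% interval -0.17 to 0.36).

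Both accessory genes lie on the X chromosome, and the Rptor cKO group held 2 females where the wild-type group held none. The male Rptor cKO array, array 2, lay between the female arrays for both genes. With embryo sex as an added term the difference of Atp6ap1 was -0.49 (limma adjusted p = 0.244) and that of Atp6ap2 0.07 (limma adjusted p = 0.877). Of 14 alternative settings, the call of Atp6ap1 held in 5 and was lost in 9, among them those that left out Rptor cKO array 1 or 2 or wild-type array 5 or 6, with differences from -0.55 to -0.32 and adjusted p from 0.0401 to 0.244.

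**Figure D2:**
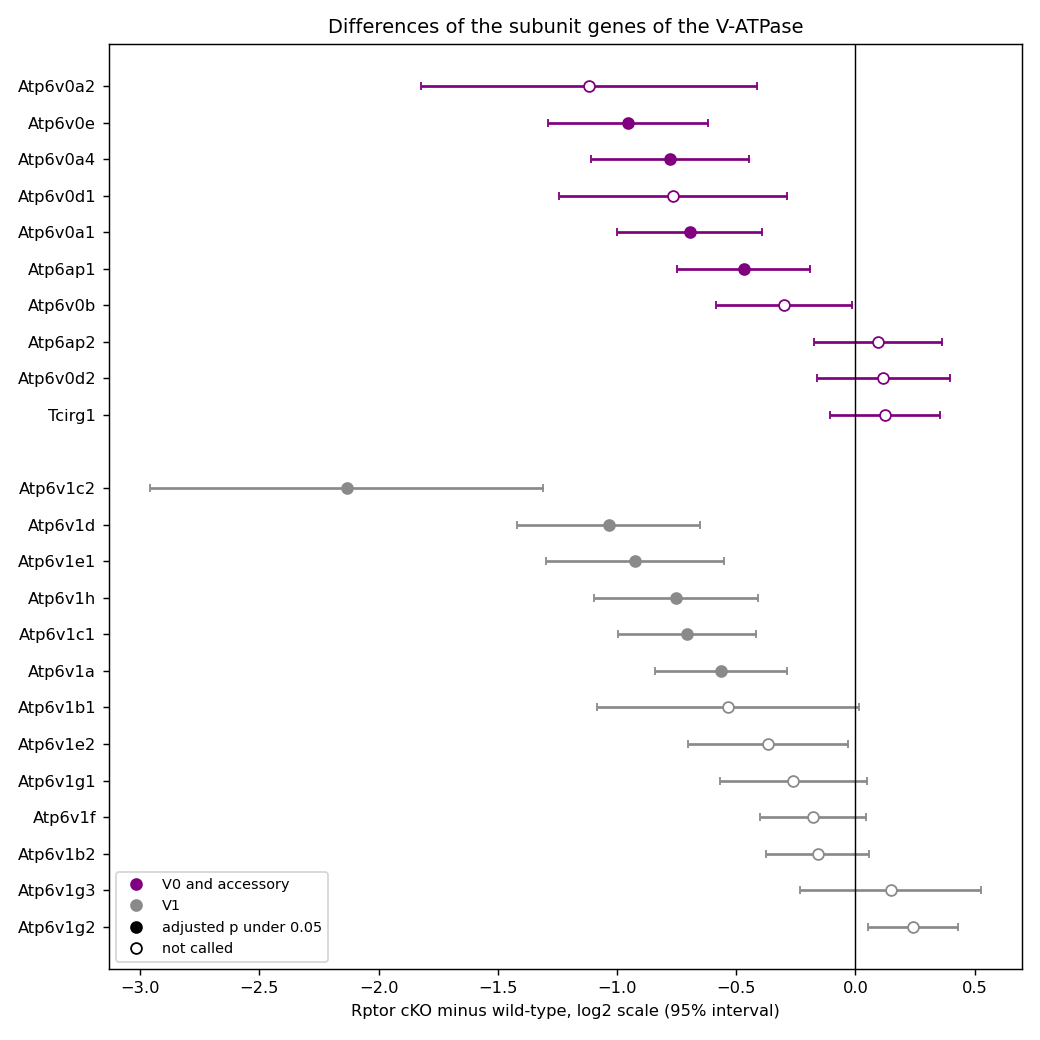
Difference between Rptor cKO and wild-type on the log2 scale (horizontal axis) with its 95% interval from limma, for the 10 V0 and accessory genes in purple and the 13 V1 genes in grey, each sorted by size. Filled points passed the adjusted threshold: 4 V0 and accessory genes and 6 V1 genes, all to the left of 0.

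Whether isoforms of the same subunit changed unequally was asked within each array, by subtracting one isoform's log2 value from the other's, for 8 pairs that were not independent of each other because they share genes. Such a difference of differences does not depend on the scaling of the arrays by a constant. An exact two-sided permutation test over the 6 arrays cannot go below p = 0.1, and with adjustment over the 8 pairs the smallest value reached was 0.16. So no pair could pass the threshold, and the values are given for their size. The groups did not overlap for 5 of the 8 pairs. The share among pairs of other genes was not counted, and for single genes it was 29.0% in either direction. The pairs reuse the values given above for single genes, so they are not separate evidence.

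The 3 pairs of Tcirg1 with another a isoform were among those without overlap. Tcirg1 minus Atp6v0a4 was 1.76, 1.67 and 1.19 in Rptor cKO, against 0.45, 0.77 and 0.69 in wild-type, a difference of 0.90 (SE 0.20, exact permutation p = 0.1). Atp6v0a1 minus Tcirg1 was -0.69, -0.75 and -0.36 in Rptor cKO and 0.54, -0.10 and 0.22 in wild-type, a difference of -0.82 (SE 0.22, exact permutation p = 0.1). Atp6v0a2 minus Tcirg1 differed by -1.24 (SE 0.51, exact permutation p = 0.1), with the wild-type arrays spread from 0.46 to 2.11. In all 3 pairs the Rptor cKO arrays stood on 1 side of the wild-type arrays, with Tcirg1 relatively higher in Rptor cKO.

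Pairs among the other a isoforms overlapped between the groups. Atp6v0a1 minus Atp6v0a4 was 1.07, 0.92 and 0.83 in Rptor cKO and 0.99, 0.67 and 0.91 in wild-type, a difference of 0.08 (SE 0.12, exact permutation p = 0.6). The pairs of Atp6v0a2 with Atp6v0a1 and with Atp6v0a4 overlapped as well (exact permutation p = 0.3 and 0.5), but became separated when wild-type array 5 was left out, which raised the count to 7 of 8 pairs.

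Atp6ap1 minus Atp6ap2 gave the tightest separation of the 8 pairs relative to its error. It was 0.23, 0.19 and 0.12 in Rptor cKO, against 0.60, 0.88 and 0.74 in wild-type, a difference of -0.56 (SE 0.088, exact permutation p = 0.1). With 1 array left out, this difference ran from -0.63 to -0.49. For Atp6v0d1 minus Atp6v0d2 the groups did not overlap either, but Atp6v0d2 was under the negative control median on every array, so the size of that difference is not given. Of the 7 pairs without it, 4 did not overlap.

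**Figure D3:**
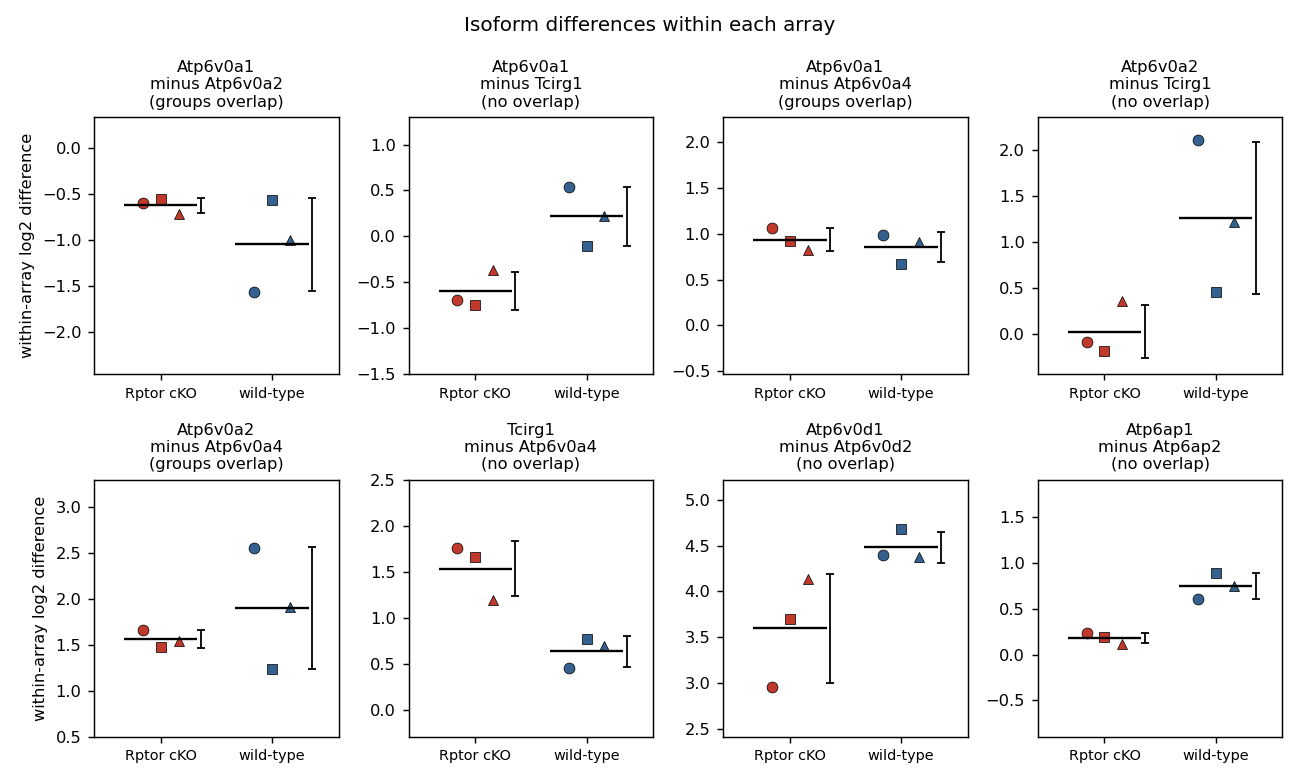
Within-array log2 difference between both genes of each of the 8 pairs (vertical axis), with Rptor cKO in red left of wild-type in blue. Circle, square and triangle are arrays 1, 2 and 3 in Rptor cKO and 4, 5 and 6 in wild-type, bars are means and whiskers the SD (n = 3 each). The 3 pairs with Tcirg1, the d subunit pair, in which Atp6v0d2 is under the negative control median, and the accessory pair do not overlap.

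The Rptor cKO arrays did not depart from wild-type equally. Averaged over the 4 genes that fell, the deviation from the wild-type mean was -0.88 on Rptor cKO array 1, -0.80 on array 2 and -0.49 on array 3. Array 3 was the highest of its group for each of the 4. Of the 10 members, 8 lay below the lowest wild-type array on array 1, and 7 on arrays 2 and 3. Rptor cKO array 1 had the brightest negative controls, with a median of 4.11 against 3.81 to 3.87 on the other arrays of both groups. Whether this bears on its deviation was not tested.

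The promoters of the members are shown for the genes that held the hexamer CACGTG, the E-box, in a window from 250 bases before to 50 after the annotated start. It is the core of the CLEAR element, through which the MiT/TFE factors named in the title of the series are known to act on lysosomal genes. RefSeq sequences (GRCm38.p6) were at hand for 8 members in 10 windows, as Tcirg1 had 3. CACGTG, which reads the same on both strands, was in 3 of the 10 windows, belonging to 3 of the 8 members. Of all 32851 promoter windows, 7.15% held it. The windows are chr17:26676146-26676445 on the plus strand for Atp6v0e, chr8:105566015-105566314 on the minus strand for Atp6v0d1 and chr4:117887280-117887579 on the minus strand for Atp6v0b. Capitals mark CACGTG, and each sequence runs 5′ to 3′ along the gene.
Atp6v0e: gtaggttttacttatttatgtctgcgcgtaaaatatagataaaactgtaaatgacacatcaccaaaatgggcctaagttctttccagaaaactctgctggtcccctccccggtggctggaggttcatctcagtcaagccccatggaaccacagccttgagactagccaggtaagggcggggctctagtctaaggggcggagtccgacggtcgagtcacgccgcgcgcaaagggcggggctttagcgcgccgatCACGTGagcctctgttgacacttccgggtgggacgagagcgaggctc
Atp6v0d1: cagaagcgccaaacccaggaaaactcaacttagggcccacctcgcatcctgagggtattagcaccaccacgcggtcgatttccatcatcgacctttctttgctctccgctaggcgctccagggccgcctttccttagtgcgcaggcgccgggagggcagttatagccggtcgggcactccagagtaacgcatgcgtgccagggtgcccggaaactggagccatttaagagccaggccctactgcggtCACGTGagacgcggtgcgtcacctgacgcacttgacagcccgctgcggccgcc
Atp6v0b: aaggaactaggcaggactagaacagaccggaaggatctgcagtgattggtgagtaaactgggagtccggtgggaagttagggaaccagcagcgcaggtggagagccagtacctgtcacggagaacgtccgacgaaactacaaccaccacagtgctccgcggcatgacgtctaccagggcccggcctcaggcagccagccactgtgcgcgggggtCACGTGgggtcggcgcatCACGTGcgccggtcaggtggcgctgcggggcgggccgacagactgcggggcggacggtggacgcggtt

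In Atp6v0e and Atp6v0d1 the E-box lay within the longer palindrome TCACGTGA, found in 0.974% of all windows, and sat at the start site itself: its first base was base 4 after the start in Atp6v0e and base -3 in Atp6v0d1. Atp6v0b held CACGTG at -36 and at -18, without the longer flanks. Of these genes Atp6v0e fell, while Atp6v0d1 and Atp6v0b did not pass the test. Atp6v0a1, Atp6v0a4 and Atp6ap1 fell as well, and their windows held no CACGTG. The window of Atp6v0a1 (chr11:101010148-101010447) lay inside the gene, however, and the listed start of that gene (101009422) was not searched. The related M-box TCATGTG, searched on both strands, was in none of the members' windows and in 3.77% of all windows. The general promoter motifs GGGCGG and GCCAAT, searched on both strands, were in 8 and 2 of the 10 windows, belonging to 6 and 2 of the 8 members. They were in 35.7% and 14.7% of all windows. The windows of Atp6v0d1, Atp6v0b and Atp6v0e were 62.3%, 65% and 55.3% G and C. These are matches of letters and not measured binding sites.

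The remaining genes of the pump and its partners gave the setting for these values. Of 13 V1 genes, 6 fell and none rose. Their median difference was -0.54, and at an unadjusted p under 0.05 there were 7 lower and 1 higher. They included Atp6v1c1, of the stator, at 6.18, 5.88 and 6.10 in Rptor cKO against 6.81, 6.56 and 6.91 in wild-type, a difference of -0.71 (SE 0.13, limma adjusted p = 0.0121). Atp6v1d, of the central rotor, fell by 1.03, Atp6v1e1, of the outer stalk, by 0.92, and Atp6v1c2 by 2.13. Without Rptor cKO array 2, 1 V1 gene fell, and without wild-type array 6, 4 did. The median over V1 genes was close to that of the V0 members, and no difference between the sectors was tested.

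Among 11 genes of assembly and regulation, 2 fell and none rose, with 4 lower and 1 higher at an unadjusted p under 0.05. Both belong to the RAVE-like complex that joins V1 to V0: Wdr7 read 5.39, 5.40 and 5.39 in Rptor cKO against 5.81, 5.95 and 5.95 in wild-type (-0.51, SE 0.087, limma adjusted p = 0.0103), and Rogdi fell by 0.82 (SE 0.21, limma adjusted p = 0.0484). A scaffold partner of these, Dmxl2, differed by 0.31 and the related Dmxl1 by -0.28, neither passing the test (limma adjusted p = 0.204 and 0.279). The V0 assembly factor Vma21 differed by 0.05 (limma adjusted p = 0.797). Dmxl2, Dmxl1 and Vma21 were chosen after their values were seen. Neither of the 2 falls was called without Rptor cKO array 2, and 1 was called without wild-type array 4 or 6 or with quantile normalization.

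Of 10 genes of the Ragulator, the Rag GTPases and their partner Slc38a9, 4 fell and none rose, with 5 lower and none higher at an unadjusted p under 0.05. The Ragulator subunits Lamtor2 and Lamtor4 fell by 0.68 (SE 0.13) and 0.61 (SE 0.099), Rragc by 0.47 (SE 0.11) and Slc38a9 by 1.09 (SE 0.14). Lamtor4 read 5.96, 6.05 and 6.24 in Rptor cKO and 6.68, 6.69 and 6.70 in wild-type. Without Rptor cKO array 2, 1 of the 10 fell, and without wild-type array 6, 2 did.

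The proton pump needs counter-ions to balance charge. A list of 13 genes held counter-ion carriers and other genes of ion transport in lysosomes and endosomes, not all of which balance that charge. Of these 13, 3 fell and none rose, with 7 lower and 2 higher at an unadjusted p under 0.05. Slc9a9, a sodium-proton exchanger of endosomes, read 4.81, 4.71 and 5.13 in Rptor cKO against 6.38, 6.34 and 6.87 in wild-type, a difference of -1.65 (SE 0.17, limma adjusted p = 0.00183). The chloride-proton exchangers Clcn3 and Clcn5 fell by 0.77 (SE 0.15) and 0.59 (SE 0.12). Without Rptor cKO array 2, 1 of the 13 fell, and 2 fell without Rptor cKO array 1 or wild-type array 6, the last with 1 rise.

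Of 5 measured genes tied to acidity and lipid hydrolysis in the cornified layer, 4 fell and none rose, also at an unadjusted p under 0.05, and the median difference was -1.88. Pla2g2f, a secreted phospholipase of the upper epidermis, read 7.81, 7.80 and 8.89 in Rptor cKO and 10.40, 10.03 and 9.71 in wild-type. The acid sphingomyelinase gene Smpd1 fell by 1.88 (SE 0.33), the acid ceramidase gene Asah1 by 0.79 (SE 0.16) and Hal, which makes urocanic acid, by 5.08 (SE 0.66). Without Rptor cKO array 2, 2 of them fell. Of 8 measured partners of the prorenin receptor in renin, WNT and polarity pathways, 1 fell and none rose, also at an unadjusted p under 0.05: Pard3, a polarity scaffold, differed by -0.53 (SE 0.10, limma adjusted p = 0.0161), a call lost without Rptor cKO array 1 or 2.

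With embryo sex as an added term, the falls numbered 2 among the V1 genes, 1 among the Ragulator and Rag genes, 1 among the ion carriers and 2 among the cornified layer genes. None of the assembly genes or the prorenin receptor partners passed the test in that fit.

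Genes were compared by the root mean square difference of their values over the 6 arrays, each centred on its own mean and not scaled. This measure depends on the size of the changes as well as their shape, so genes that vary little lie near each other. By it the genes nearest to Atp6v0e were Lpcat2, Eef2k, Tcn2 and Tspyl4, with 0.078, 0.082, 0.085 and 0.089. Those nearest to Atp6v0a4 were Acadvl, Ap1m2, Kcnk6 and Pkp1, with 0.043, 0.053, 0.056 and 0.058. Among the members themselves, Atp6v0a1 and Atp6v0a4 were nearest to each other (0.124), Atp6v0b and Atp6ap1 likewise (0.142), and Tcirg1 and Atp6ap2 likewise (0.143).

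The sheets carried the keratinocyte markers of their label: Krt5 lay between 11.93 and 12.38 and Krt14 between 10.37 and 10.94 on the 6 arrays. Of 8 keratinocyte markers 1 rose and 3 fell, with a mean level of the list of 9.96 to 10.58 in Rptor cKO and 10.51 to 10.75 in wild-type. Krt10, of the suprabasal layers, read 10.78, 10.54 and 12.11 in Rptor cKO and 12.97, 12.82 and 12.93 in wild-type. It fell by 1.76 (SE 0.35), with Rptor cKO array 3 nearest to wild-type, as for the 4 V0 and accessory genes that fell. Pla2g2f, Smpd1 and Hal shared that feature, while Atp6v1c1 had Rptor cKO array 1 nearest, so it was not particular to Krt10 and these genes. The keratinocyte rise was called in 1 of the 6 fits with an array left out, that without wild-type array 6, in which no marker of the list fell. It was also lost with each array's median subtracted. The falls numbered 1 without Rptor cKO array 1, none without array 2 and 2 without wild-type array 5.

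Of 8 macrophage and Langerhans markers 3 fell and none rose, with 5 lower and none higher at an unadjusted p under 0.05. The mean level of that list was 4.64 to 4.84 in Rptor cKO and 5.04 to 5.10 in wild-type, and Csf1r fell by 0.64 (SE 0.12). Ptprc was under the negative control median on 4 arrays. The count was 3 with any 1 array left out, but 0 once embryo sex was added to the fit and 0 on the male arrays alone, and in both the median difference of the list was -0.22, against -0.41 over all arrays.

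Of 5 fibroblast markers 4 rose, with a mean level of 6.27 to 6.91 in Rptor cKO and 5.65 to 5.90 in wild-type, and Col1a1 rose by 0.90 (SE 0.23). The count was 2 with each array's median subtracted, 2 with quantile normalization and 1 once embryo sex was added to the fit. In that fit and on the male arrays alone the median difference of the list was 1.08, against 0.90 over all arrays. The count was 1 without Rptor cKO array 2 or wild-type array 6, and 2 without Rptor cKO array 1 or wild-type array 5. It was 3 without wild-type array 4 and 5 without Rptor cKO array 3. Of 5 endothelial markers 1 rose, with a mean level of 3.73 to 3.89 in Rptor cKO and 3.51 to 3.77 in wild-type, and 3 of them were dimmer than the median negative control on every array. That rise was lost without Rptor cKO array 1 or 2 or wild-type array 6, and once embryo sex was added as a term.

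The cell types best known for the tissue-restricted isoforms are osteoclasts and acid-secreting ionocytes. None of 6 osteoclast markers and none of 5 ionocyte markers passed the test, with 1 osteoclast marker lower and 1 ionocyte marker higher at an unadjusted p under 0.05. Their mean levels were 4.68 to 4.84 in Rptor cKO and 4.71 to 4.79 in wild-type for osteoclasts, and 5.39 to 5.64 in Rptor cKO and 5.51 to 5.59 in wild-type for ionocytes. The ionocyte list holds Atp6v1b1, which is also counted among the V1 genes and differed by -0.54 without passing the test (limma adjusted p = 0.226). The 4 other ionocyte markers had a mean level of 4.94 to 5.06 in Rptor cKO and 4.83 to 4.91 in wild-type. Ctsk was under the negative control median on 5 arrays, and Foxi1 was 0.27 higher without passing the test (limma adjusted p = 0.152). None of 5 melanocyte markers passed the test, with 2 higher at an unadjusted p under 0.05 and a mean level of 7.27 to 8.05 in Rptor cKO and 6.85 to 7.56 in wild-type, and 1 rose when Rptor cKO array 1 was left out. The part of these cell types in the V0 differences was not tested.

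Rptor itself read 6.54, 6.82 and 6.72 in Rptor cKO and 6.98, 7.46 and 7.00 in wild-type, a difference of -0.46 (SE 0.15, limma adjusted p = 0.0988) in a probe set that may or may not cover the deleted exons.

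**Figure D4:**
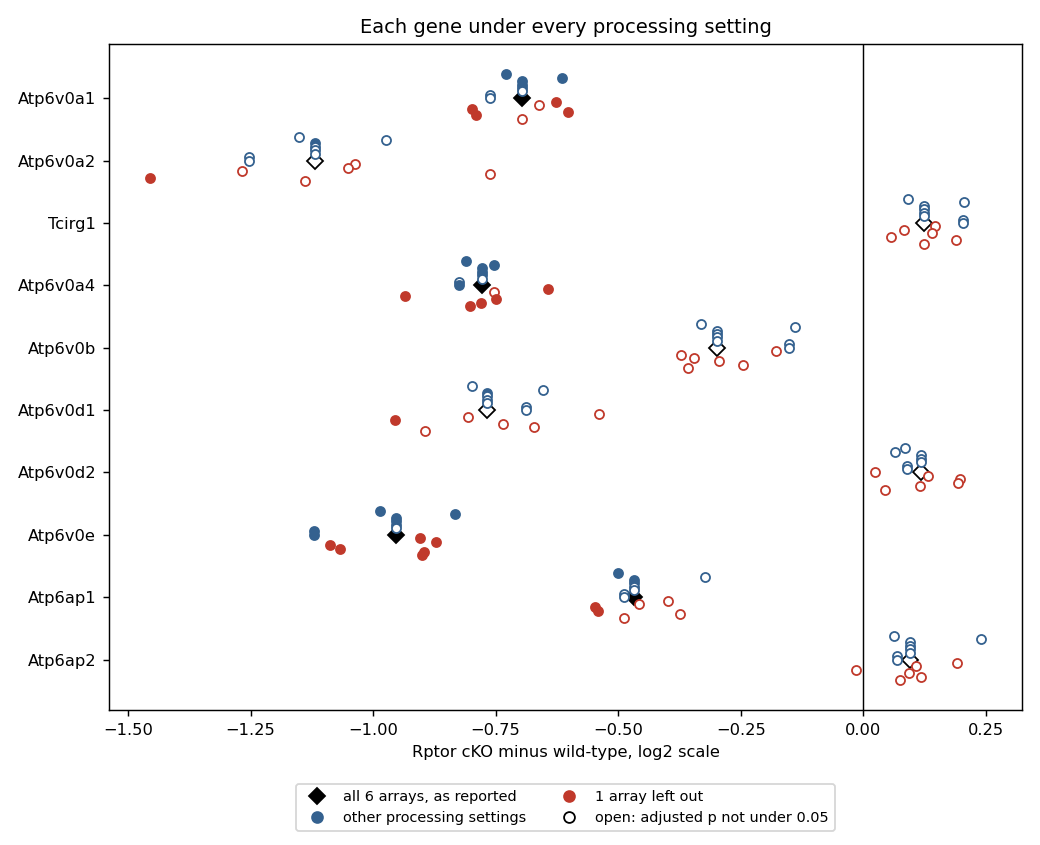
Difference between Rptor cKO and wild-type on the log2 scale (horizontal axis) for each of the 10 genes, with all 6 arrays (black diamonds), under other processing settings (blue) and with 1 array left out (red). Filled points passed the adjusted threshold. Atp6v0e lies between -1.12 and -0.83, and Atp6ap2 between -0.01 and 0.24.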

How the data were processed

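RNA of 6 epidermal sheets was measured on expression arrays. The authors deposited log2 probe set values, made with RMA and Partek on the build mm10 per the submitters' processing notes; versions are not stated. RMA brings arrays toward 1 distribution, so a general change of RNA per cell cannot be seen. Slides and scan dates are not known here, so no batch was tested.

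Of 72688 probe sets, 30604 named a single gene in the platform annotation. Symbols were updated by Entrez ID or, without one, by an unambiguous synonym, which gave 30063 genes. Group differences were fitted in R 4.3.3 by limma 3.58.1 (lmFit, eBayes) over all 6 arrays with the group as the sole term, two-sided, with Benjamini-Hochberg adjustment over all genes and no filter on dim probe sets. The series description calls the samples biological replicates. Tested on simulated data, 30063 genes with this comparison's means and variances, the fit recovered 20% of changes of 0.5 (log2) and 71.2% of changes of 1. Far fewer genes were changed in the simulation than the 9.60% called here, which alters the adjusted threshold. These rates are therefore not the power of this comparison. Alternatives were another normalization, a filter on dim probe sets, another choice of probe set, other variance estimates, embryo sex, and each array left out.

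Levels of different probe sets were not compared. The members and gene lists were chosen with earlier results of these data known. All members were named. Dmxl2, Dmxl1 and Vma21 were named after their values were seen. From the lists of related genes, up to 4 in each direction with the smallest p among those called were named. From the cell type markers, a set of defining markers was named, whether called or not. For the 2 called members with the largest change, the 4 genes with the smallest root mean square difference of centred values were named. Annotation used pandas 2.3.3, and plots matplotlib 3.10.9, in Python 3.11.15. Promoter sequences were those of RefSeq on GRCm38.p6, the assembly of mm10.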

Additional observations from a re-analysis of the deposited data

How the results depend on the processing

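No member changed direction in any setting except Atp6ap2, whose difference was -0.015 without Rptor cKO array 3, with 1 array left out between -0.015 and 0.19. Of the 10 members, 0 were called with an ordinary linear model without moderation (4 lower at an unadjusted p under 0.05), 1 with embryo sex as an added term and 2 on the male arrays alone, and 1 to 5 with 1 array left out. Over all genes these counts were 8, 643 and 867, and 900 to 2444 with 1 array left out, against 2886 in the comparison as reported. With dim probe sets filtered out, which removed Atp6v0d2, 6 members were lower, Atp6v0a2 (adjusted p = 0.0466) and Atp6v0d1 (adjusted p = 0.0465) added. The share of lower genes rose over the whole table too, with 1861 of 20425 genes lower after the filter and 1791 of 30063 without it. Pairs of isoforms without overlap numbered 5 to 7 with 1 array left out. Each member has 1 probe set, so averaging probe sets altered no member's value. The sample labels do not say which embryos shared a litter, and the replicate numbers of the groups, 1 to 3 and 4 to 6, are not shared. No paired analysis was therefore possible, and litter did not enter the fit. Array number limits precision, and Atp6v0a1, Atp6v0a4, Tcirg1 and Atp6v0d2 lay on every array under the 95 percentile of its negative control probe sets, which ran from 7.46 to 8.07 and sets no sharp limit of detection.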
